A study of Homo sapiens with 8 samples.

Results

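The small cell lung cancer line H146 was set against the other lung lines of the series, H522 and H661. These are 3 of the 8 human cancer cell lines that were sequenced, chosen by the tissue in the labels. H146 is a small cell lung cancer line grown for 4 to 8 passages, H522 a non-small cell lung cancer line grown for 4 to 7 passages and H661 a large cell lung cancer line grown for 4 to 9 passages. All lines express ERBB4, the gene the series was built around, and all were kept in multiwell plates for 48 hours before total RNA was extracted, with no agent named in the labels. The series design sorts the lines by response to ibrutinib, a covalent kinase inhibitor, but no label assigns a response to a line, and response was not compared. Each line is 1 tumour and 1 library, so the differences are between these lines, no test was possible, and the traits of a single line cannot be told apart from those of its tumour type.

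Levels are FPKM, which scales the fragments of a gene to the length of its transcript and the size of the library. The comparison covers the 16220 of 58202 genes that reached 1 FPKM in any of the 3 lung lines. The gap of a gene is the difference in log2(FPKM + 1) between H146 and the nearer of H522 and H661, positive where H146 is above both and negative where it is below both. This scale understates differences of genes with low FPKM. A gap of 2, close to 4-fold for genes well above 1 FPKM, was used to describe a gene as clearly outside the other lines. Where a gene is listed at 0, no fold is given.

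Small cell lung cancer is a neuroendocrine tumour. Its cells resemble the rare neuroendocrine cells of the airway and carry dense core granules with peptide hormones. The tumours usually lose RB1, the retinoblastoma protein that holds back entry into the cell cycle, and the classic neuroendocrine forms lack YAP1, the coactivator at the end of the Hippo pathway. Non-small cell lung cancers, among them large cell carcinoma, more often keep RB1 and YAP1 and can show the mesenchymal filament protein vimentin, encoded by VIM.

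The label of H146 was set beside 5 marker genes, chosen with earlier results of these data known. INSM1, a zinc finger repressor of neuroendocrine cells, had 81.3 FPKM in H146 and was listed at 0 in H522 and in H661. SYP, the synaptic vesicle protein synaptophysin, had 6.00 FPKM in H146, against 2.37 in H522 and 0.472 in H661, a gap of 1.05. RB1 had 2.31 FPKM in H146, against 12.8 in H522 and 48.3 in H661, a gap of -2.05. RB1 was therefore low but detected in H146, and its gap was -1.76 after upper-quartile scaling and -1.98 after quantile normalization. YAP1 had 0.0586 FPKM in H146, against 65.0 in H522 and 33.1 in H661, a gap of -5.01. VIM had 0.219 FPKM in H146, against 193 in H522 and 1371 in H661, a gap of -7.31. All 5 markers lay on the side that the small cell label predicts, with SYP the nearest to the other lines. Because of how the markers were chosen, this is no independent support for the label.

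Across all genes, H146 was above both other lung lines in 5342 (32.9%), below both in 6873 (42.4%) and between them in 4005 (24.7%). It was at least 2 above both in 893 genes (5.51%) and at least 2 below both in 502 (3.09%). By the same rule, H522 was clearly above the other lung lines in 206 genes (1.27%) and below in 180 (1.11%), and H661 above in 433 (2.67%) and below in 109 (0.672%). H146 was thus outside its neighbours in more genes than either of them, while H522 and H661 still differed from each other by 2 or more in 1075 genes. The median gene was 0.21 lower in H146 than the mean of H522 and H661 on the log2 scale. That median became 0.01 with upper-quartile scaling, a shift of the whole distribution, and the numbers above and below both then changed places, at 6512 and 5745. Small differences near that shift therefore carry no direction, and the median of each gene list below is to be read beside the -0.21 of all genes. Counts in each list are likewise to be read beside the shares of all genes given here.

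**Figure D1:**
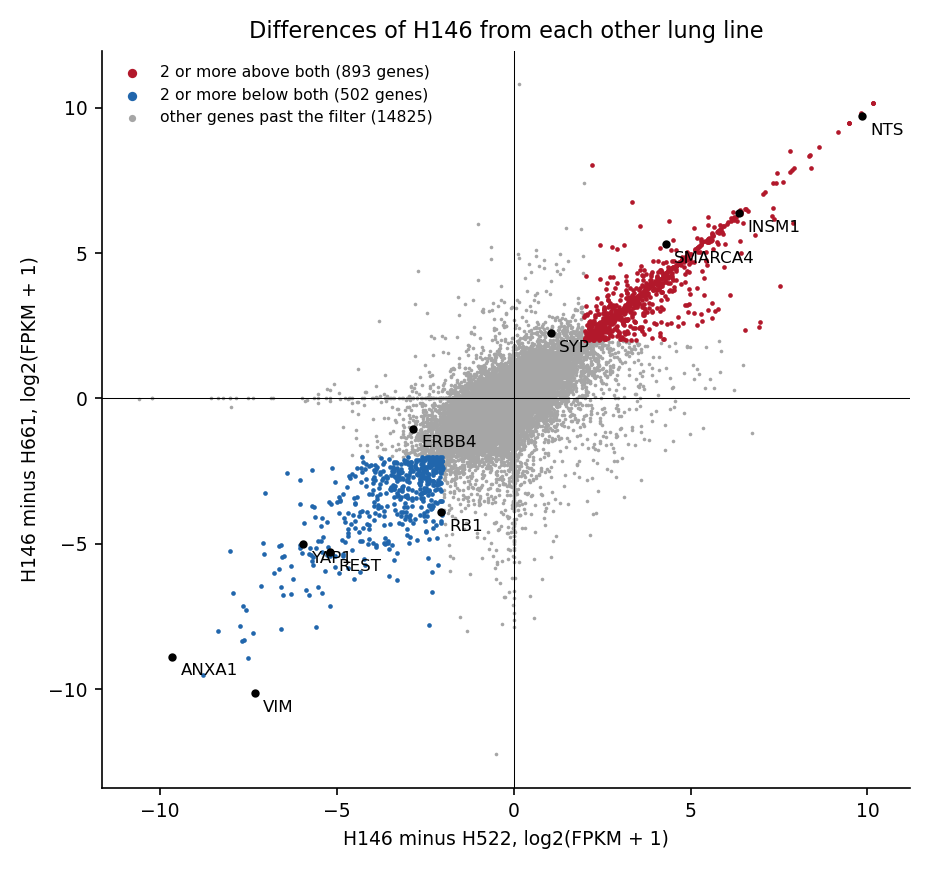
Difference in log2(FPKM + 1) between H146 and H522 (x axis) and between H146 and H661 (y axis) for the 16220 genes past the filter, 1 point per gene. Red points are the 893 genes with H146 at least 2 above both lines, blue points the 502 at least 2 below both, and black points are named genes, with ANXA1 and VIM far below and NTS and INSM1 far above.

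The libraries differed in ways that stand beside these counts. H146 had 13300 genes at 1 FPKM or more, against 12445 in H522 and 12779 in H661, and mitochondrial genes made up 13.1% of its summed FPKM, against 6.11% in H522 and 7.92% in H661. Low FPKM values fall in steps set by single fragments. From those steps the depth of H146 was 0.742 of that of H522 and 1.10 of that of H661. The steps of H146 matched those of 1321N1, HEC59 and COV318 more often than those of H522 and H661, at 23.9% to 29.2% of low genes against 12.7% and 13.0%. The match with KLE was 19.0% and that with H716 14.4%, while H522 and H661 matched each other in 20.1%. The sets are therefore not sharply divided, but H146 steps matched those of the lung lines least often. Such a difference between libraries cannot be told apart from the comparison itself, and it leaves the relative depth uncertain. Set against the 3 lines whose steps it matched best, H146 was above all of 1321N1, HEC59 and COV318, which are glial, endometrial and ovarian, in 741 of the 893 higher genes (83.0%) and at least 2 above all of them in 433 (48.5%). It was below all of them in 388 of the 502 lower genes (77.3%) and at least 2 below in 160 (31.9%). Over all genes past the filter H146 was above all 3 of these lines in 26.9% and at least 2 above in 3.41%, and below them in 29.2% and at least 2 below in 1.62%. Against all 5 lines of other tissues, 650 higher genes (72.8%) were above all and 283 (31.7%) at least 2 above. Over all genes these shares were 20.3% and 2.07%. Of the lower genes, 359 (71.5%) were below all 5 and 105 (20.9%) at least 2 below, beside 21.1% and 0.888% of all genes. The higher and lower genes had been chosen on the same H146 values, so these shares are no independent support. Short genes reach high FPKM from few fragments. RNA5SP300, a 5S ribosomal RNA pseudogene, and AC009065.3 and AC023593.1, which are not in GENCODE v29, were each listed at 1143 FPKM in H146 and at 0 in both other lung lines.

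Among protein-coding genes, NTS had the largest gap of all. NTS encodes the peptide neurotensin and had 971 FPKM in H146, against 0.0484 in H522 and 0.161 in H661, a gap of 9.71. The 15 protein-coding genes with the largest gaps above also held DDC, described below. DLX5, a homeobox factor of the developing forebrain and skeleton, had 348 FPKM in H146, against 0.0289 in H522 and 0.435 in H661. LMO3, a LIM-only cofactor of transcription, had 380 FPKM in H146, against 0.709 in H522 and 0.0482 in H661. TAGLN3, a neuronal relative of transgelin, had 222 FPKM in H146 and was listed at 0 in the other lung lines. TMEM176A, a membrane protein, had 323 FPKM in H146 and was also listed at 0 in both. In each of these genes H522 and H661 were under 1 FPKM, so the gap is set almost wholly by the level in H146. Several epithelial and secretory genes stood beside them. CLDN18, a tight junction claudin of lung and stomach, had 96.7 FPKM in H146, against 0.0329 in H522 and 0.0789 in H661. TFF3, a mucosal trefoil peptide, had 91.7 FPKM in H146 and was listed at 0 in both others, and MAL2, a transcytosis protein, had 206 FPKM in H146, against 0.286 in H522 and 0.220 in H661. Others of the 15 were GTSF1, KCNMB2, CHN2, HEPACAM2 and UGT2A1, with gaps of 6.44 to 7.44. UGT2A1 shares most of its sequence with a neighbouring gene of its family, and the rule for shared reads is not stated, so its level is uncertain.

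Several transcription factors of neuroendocrine cells were clearly higher in H146. Of 35 listed factors, 16 passed the filter and 19 were under 1 FPKM in all 3 lung lines, among them NEUROD1, the factor of another small cell subtype. H146 was above both lines in 13 of the 16, between them in 3 and below both in none, and 10 were at least 2 above, against 5.51% of all genes. The median difference of H146 from the mean of the other lung lines was 2.83, against -0.21 over all genes. The filter is met through the line where a gene is high, so these counts describe the detected factors and not the whole list. The same holds for the counts and medians of the other lists.

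PROX1, a homeobox factor, had 51.1 FPKM in H146, against 0.0675 in H522 and 0.0139 in H661, a gap of 5.61. ST18, a zinc finger factor of the MYT1 family, had 43.9 FPKM in H146, was listed at 0 in H522 and had 0.00786 FPKM in H661. MYT1L and MYT1, of the same family, had 9.13 and 4.79 FPKM in H146 and at most 0.501 FPKM in the others. The neural factors POU3F2 and SOX4 were among those for which H146 lay between the other lines. POU3F2 had 10.9 FPKM in H146, against 0.00624 in H522 and 13.4 in H661, so this factor did not set H146 apart from H661.

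The machinery of dense core granules and synaptic vesicles was higher in H146 across most of its parts. Of 47 listed genes 42 passed the filter, with 24 at least 2 above both lines (57.1%, beside 5.51% of all genes). H146 was above both lines in 39 of the 42 and below both in none. Over the 42 genes the median difference came to 2.78. DDC, the decarboxylase that makes dopamine and serotonin, had 194 FPKM in H146, was listed at 0 in H522 and had 0.130 FPKM in H661. SYT4, a synaptotagmin of granules, had 78.0 FPKM in H146, was listed at 0 in H522 and had 0.142 FPKM in H661. SCG2, a granin stored in granules, had 87.1 FPKM in H146, against 0.244 in H522 and 0.284 in H661, a gap of 6.10. The other granins were less abundant. CHGA, chromogranin A, had 7.59 FPKM in H146, against 0.371 in H522 and 0.115 in H661, and CHGB had 12.8 FPKM in H146, against 0.699 in H522 and 0.701 in H661. The membrane fusion protein SNAP25 had 67.6 FPKM in H146, against 0.0597 in H522 and 0.0784 in H661. The prohormone convertase PCSK2, which cuts peptide precursors inside the granule, had 26.6 FPKM in H146 and was listed at 0 in both others. Not every vesicle gene separated the lines. SV2A, a vesicle glycoprotein, had 10.96 FPKM in H146, against 11.5 in H522 and 0.390 in H661.

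**Figure D2:**
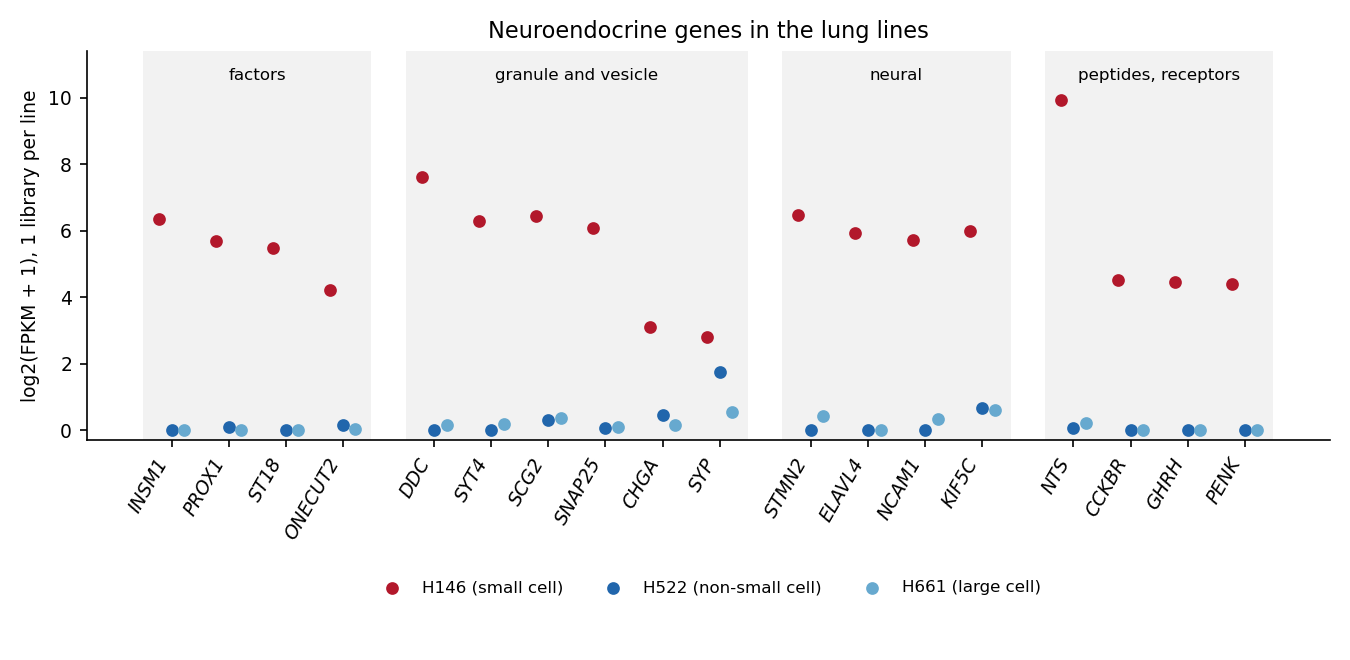
Log2(FPKM + 1) of neuroendocrine factors, granule and vesicle genes, neural genes, and peptides or peptide receptors in H146 (red), H522 (dark blue) and H661 (light blue), 1 point per library. The genes were picked with their levels known, and H146 was above both lines for all of them, with the smallest gap for SYP at 1.05. List members with H146 below or between the lines, such as MAP2, GAL and SV2A, are not shown.

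Neural adhesion and cytoskeletal genes followed the same order with more exceptions. Of 41 listed genes 35 passed the filter, with 19 at least 2 above both lines (54.3%, beside 5.51% of all genes). H146 was above both lines in 27 of the 35 and below both in 2. The median difference of the 35 was 3.14. STMN2, a microtubule regulator of neurons, had 87.9 FPKM in H146, was listed at 0 in H522 and had 0.345 FPKM in H661. ELAVL4, the neuronal RNA-binding protein HuD, had 60.5 FPKM in H146 and was listed at 0 in both others. NCAM1, the adhesion molecule CD56 used to diagnose small cell lung cancer, had 52.3 FPKM in H146, was listed at 0 in H522 and had 0.276 FPKM in H661. Other neural genes were abundant in all 3 lung lines. UCHL1, a neuronal ubiquitin hydrolase, had 1117 FPKM in H146, against 656 in H522 and 230 in H661. TUBB3, neuronal beta-tubulin, had 48.4 FPKM in H146, against 53.2 in H522 and 32.5 in H661. MAP2, a dendritic microtubule protein, had 79.7 FPKM in H146, against 281 in H522 and 328 in H661, a gap of -1.80. H522 and H661 therefore had high levels of some neural cytoskeletal genes while granule and adhesion genes such as SNAP25 and NCAM1 were near 0 in them.

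Few neuropeptides were detected in any lung line. Of 44 listed peptides and receptors 14 passed the filter. H146 was above both lines in 10 of these, at least 2 above in 7 and at least 2 below in 2. Over all genes these shares were 32.9%, 5.51% and 3.09%. The list depended strongly on the filter. Its median difference was 1.86 over the 14 genes, against -0.21 over all genes. Without the filter it was 0.08 over 36 genes, against -0.02. NTS, given above, was the most abundant. GHRH, growth hormone releasing hormone, and PENK, the enkephalin precursor, had 21.3 and 20.3 FPKM in H146 and were listed at 0 in both other lines. CCKBR, the receptor for gastrin and cholecystokinin, had 21.8 FPKM in H146 and was listed at 0 in both others. GRP, gastrin releasing peptide, a classic product of small cell lung cancer, had 4.86 FPKM in H146, was listed at 0 in H522 and had 0.107 FPKM in H661. Peptides were not all higher. GAL, galanin, had 0.0535 FPKM in H146, against 4.09 in H522 and 6.47 in H661, and ADM, adrenomedullin, had 0.623 FPKM in H146, against 28.3 in H522 and 6.75 in H661.

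Several neuronal proteins are targets of autoantibodies in patients with small cell lung cancer. Of 27 such genes 25 passed the filter, and H146 was above both lines in 19 and below both in 4. At least 2 above were 9 genes (36.0%) and at least 2 below 1 (4.0%), beside 5.51% and 3.09% of all genes. CACNA1A, the pore subunit of the P/Q-type calcium channel attacked in Lambert-Eaton syndrome, had 45.6 FPKM in H146, against 0.00723 in H522 and 0.114 in H661. KCNA1, a voltage-gated potassium channel subunit, had 26.8 FPKM in H146 and was listed at 0 in both others. SOX2, the target of another antibody, had 55.7 FPKM in H146, against 72.0 in H522 and 7.48 in H661, so H146 lay between the lines. ZIC1, a zinc finger factor of the cerebellum, had 0.116 FPKM in H146, against 9.21 in H522 and 17.5 in H661, a gap of -3.19. This list shares ELAVL4, ELAVL3, NOVA1, DPYSL5 and SYT1 with the neural and granule lists.

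REST is a zinc finger repressor that binds a long element, RE1, near neuronal genes and keeps them off outside the nervous system. REST had 0.0375 FPKM in H146, against 36.8 in H522 and 39.5 in H661, a gap of -5.19. In the 5 lines of other tissues REST was between 22.9 and 53.6 FPKM, so H146 was the low line among all 8. To show such an element, promoters were searched for TTCAGCACC, any 2 bases and GGACAG, on both strands. This exact form was chosen after the levels of REST had been seen. It occurred in the 250 bases before the start of 5 of 27305 genes (0.0183%): BSX, DRD3, GRIA2, LHX3 and SYN1. SYN1 and GRIA2 were the members of these 5 past the filter in the lung lines. Their windows are printed from RefSeq on GRCh38.p14 in the direction of the gene, from 250 bases before the start up to the start, with the element in capitals. That of SYN1 is chrX:47619858-47620107 on the minus strand and that of GRIA2 chr4:157220369-157220618 on the plus strand.
SYN1: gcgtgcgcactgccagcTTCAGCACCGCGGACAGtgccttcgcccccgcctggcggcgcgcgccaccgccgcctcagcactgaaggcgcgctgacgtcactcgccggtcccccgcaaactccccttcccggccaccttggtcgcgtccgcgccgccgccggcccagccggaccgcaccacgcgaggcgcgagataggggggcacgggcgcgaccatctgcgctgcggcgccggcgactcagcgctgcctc
GRIA2: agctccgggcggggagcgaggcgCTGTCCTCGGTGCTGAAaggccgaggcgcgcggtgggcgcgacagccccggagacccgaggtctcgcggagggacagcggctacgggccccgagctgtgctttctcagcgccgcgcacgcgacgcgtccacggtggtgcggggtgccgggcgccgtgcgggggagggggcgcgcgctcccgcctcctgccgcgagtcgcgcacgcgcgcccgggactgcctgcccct
The element lies at -233 to -217 from the start in SYN1 and at -227 to -211 in GRIA2, where it reads on the opposite strand. SYN1, the vesicle protein synapsin I, had 5.47 FPKM in H146, against 0.702 in H522 and 0.171 in H661, a gap of 1.93. GRIA2, a glutamate receptor subunit, had 52.3 FPKM in H146, against 180 in H522 and 29.9 in H661. The 2 genes with the same element thus stood in different orders, SYN1 above both lines and GRIA2 between them. The element is a match of letters and not a measured binding site.

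The Notch pathway restrains the neuroendocrine programme in the airway, and its receptors, ligands and coactivators did not share 1 direction. Of 32 listed genes with values 26 passed the filter, and H146 was above both lines in 8 and below both in 16. Over all genes H146 was above both in 32.9% and below both in 42.4%. The 4 genes at least 2 above and the 4 at least 2 below were each 15.4%, beside 5.51% and 3.09% of all genes. The median difference was -0.87. The genes clearly lower in H146 were REST, which is induced by Notch, the receptor NOTCH2, the coactivator MAML2 and NUMBL, an adaptor that inhibits Notch. NOTCH2 was listed at 0 in H146, against 32 FPKM in H522 and 42.1 in H661. NOTCH1 and NOTCH3 were low in every lung line, with at most 1.66 FPKM. NUMBL had 0.974 FPKM in H146, against 7.95 in H522 and 9.21 in H661, and its gap of -2.18 became -1.94 with upper-quartile scaling. HES1, the main repressor that Notch induces, had 0.122 FPKM in H146, against 6.79 in H522 and 3.22 in H661, a gap of -1.91. The genes clearly higher in H146 were HES6, DLK1, DLL1 and the coactivator MAML3. HES6, a relative of HES1 that antagonizes it, had 51.0 FPKM in H146, against 2.55 in H522 and 1.82 in H661, a gap of 3.87. DLK1, a ligand without a receptor-activating domain, had 29.8 FPKM in H146, against 0.0164 in H522 and 2.93 in H661. The activating ligand DLL1 had 6.39 FPKM in H146, against 0.0163 in H522 and 0.133 in H661. DLL3, the inhibitory ligand that is a drug target in small cell lung cancer, separated the lines little, with 7.98 FPKM in H146, against 2.17 in H522 and 5.03 in H661, a gap of 0.57. RBPJ, the DNA-binding factor of the pathway, had 42.0 FPKM in H146, against 32.4 in H522 and 32.3 in H661.

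Many genes of the Hippo pathway were clearly lower in H146. YAP1 and WWTR1, which encodes TAZ, are coactivators that bind TEAD factors, and their targets organize matrix and adhesion. Of 39 listed genes 36 passed the filter, H146 was below both lines in 28 and above both in 4, and 15 were at least 2 below, against 3.09% of all genes. For the detected genes the median difference was -2.21. WWTR1 had 0.220 FPKM in H146, against 12.7 in H522 and 23.1 in H661, a gap of -3.49. Targets used to read the pathway were low as well. CYR61, a secreted matrix protein, had 0.0159 FPKM in H146, against 58.6 in H522 and 97.7 in H661, a gap of -5.87. CTGF, also named CCN2, had 0.544 FPKM in H146, against 73.1 in H522 and 357 in H661, a gap of -5.59. ANKRD1, a muscle ankyrin repeat protein, was listed at 0 in H146, against 4.47 FPKM in H522 and 13.6 in H661. So were some brakes of the pathway. PTPN14, a phosphatase that binds YAP1, had 0.113 FPKM in H146, against 39.8 in H522 and 46.7 in H661, and the kinase LATS2 had 0.00626 FPKM in H146, against 11.04 in H522 and 12.1 in H661. Not every gene of the pathway was clearly lower. TEAD1 was below both lines by less than 2, with 24.6 FPKM in H146, against 84.4 in H522 and 56.8 in H661. LATS1 lay between the lines. The scaffold AMOTL1 was higher, with 25.1 FPKM in H146, against 2.96 in H522 and 0.430 in H661, a gap of 2.72.

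The TEAD motif CATTCC, which reads GGAATG on the other strand, was searched on both strands in the 250 bases before gene starts. It occurred in 14.3% of 27305 genes with a RefSeq window. Of the 15 genes of the Hippo list at least 2 below both lines, 13 had a window and 7 of these held the motif, namely AJUBA, AMOTL2, ANKRD1, AXL, CTGF, PTPN14 and YAP1. These 13 genes had been chosen by their levels, several of them are on the list because they are known YAP targets, and a match is not a measured binding site. The windows of CTGF and ANKRD1 are shown because both are targets used to read YAP activity, in RefSeq on GRCh38.p14, in the direction of the gene and with the motif in capitals. They are chr6:131951373-131951622 and chr10:90921088-90921337, both on the minus strand.
CTGF: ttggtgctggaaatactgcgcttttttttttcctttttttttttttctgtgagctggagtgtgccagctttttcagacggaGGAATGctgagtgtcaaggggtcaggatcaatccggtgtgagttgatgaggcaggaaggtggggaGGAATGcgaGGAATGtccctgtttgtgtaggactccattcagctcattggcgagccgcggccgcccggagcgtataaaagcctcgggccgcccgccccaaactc
ANKRD1: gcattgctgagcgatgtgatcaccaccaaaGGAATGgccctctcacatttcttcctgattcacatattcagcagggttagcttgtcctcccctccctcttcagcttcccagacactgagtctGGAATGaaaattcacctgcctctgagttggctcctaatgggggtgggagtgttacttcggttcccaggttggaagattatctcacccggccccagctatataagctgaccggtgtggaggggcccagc
The motif begins at -169, -104 and -95 from the start in CTGF and at -220 and -128 in ANKRD1, so CTGF held 3 copies and ANKRD1 held 2.

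Mesenchymal and membrane scaffold genes lay below both lines in most cases, and their median rested largely on H661. Of 42 listed genes 37 passed the filter, and H146 was below both lines in 26 and above both in 5. At least 2 below were 9 genes (24.3%) and at least 2 above 1 (2.70%), beside 3.09% and 5.51% of all genes. The median difference was -2.12, and it was -0.55 without H661, with 9 genes at least 2 below, and -3.62 without H522, with 25. ANXA1, a membrane-binding annexin, had the largest negative gap of any protein-coding gene, with 0.0253 FPKM in H146, against 819 in H522 and 482 in H661, a gap of -8.88. S100A10, the partner of annexin A2, had 0.771 FPKM in H146, against 350 in H522 and 563 in H661, a gap of -7.63. ANXA2 itself was reduced but abundant, with 35.4 FPKM in H146, against 1054 in H522 and 1069 in H661. Many mesenchymal genes were high in H661 alone. CAV1, caveolin 1, had 0.0148 FPKM in H146, against 0.227 in H522 and 113 in H661, and ZEB2, a repressor of epithelial genes, was listed at 0 in H146, against 0.0846 FPKM in H522 and 101 in H661. These genes lie outside the rule of 2 because H522 was as low as H146. ZEB1 was low in H146 against both lines, with 0.367 FPKM in H146, against 22.1 in H522 and 5.79 in H661. SNAI2, another repressor of epithelial genes, went the other way, with 4.64 FPKM in H146, listed at 0 in H522 and 0.138 FPKM in H661.

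The other protein-coding genes with the largest negative gaps were of mixed function. EMP1, an epithelial membrane protein, was listed at 0 in H146, against 327 FPKM in H522 and 256 in H661. MSN, moesin, which ties actin to the membrane, had 0.0533 FPKM in H146, against 95.6 in H522 and 114 in H661. GJA1, the gap junction protein connexin 43, had 0.0234 FPKM in H146, against 247 in H522 and 104 in H661. The guidance signals SEMA3A and SEMA3C were both near 0 in H146. SEMA3A was listed at 0 in H146, against 199 FPKM in H522 and 140 in H661, and SEMA3C had 0.0297 FPKM in H146, against 145 in H522 and 88.7 in H661. GSTP1, a glutathione transferase that detoxifies drugs, had 0.339 FPKM in H146, against 146.4 in H522 and 84.7 in H661. HMGA2, a fetal chromatin protein, had 0.104 FPKM in H146, against 84.6 in H522 and 115 in H661. The remaining 4, ALDH7A1, SFRP4, GPC4 and ADGRG6, had gaps of -6.22 to -7.27.

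Integrin, focal adhesion and laminin genes were lower in H146 in most cases. Of 49 listed genes with values 39 passed the filter, and H146 was below both lines in 27 and above both in 9. The 7 genes at least 2 below were 17.9% and the 2 at least 2 above 5.13%, beside 3.09% and 5.51% of all genes. Over the 39 genes the median difference came to -1.16, and it was -0.62 without H661. Without H522, 14 genes were at least 2 below. ITGAV, the alpha-v integrin, had 5.86 FPKM in H146, against 142 in H522 and 166 in H661, a gap of -4.38. FERMT2, kindlin 2, which activates integrins, had 0.409 FPKM in H146, against 23.0 in H522 and 38.8 in H661. Its epithelial relative FERMT1 had the opposite order, with 16.9 FPKM in H146, against 1.001 in H522 and 0.0871 in H661, a gap of 3.16. LAMA4, a laminin chain of mesenchymal basement membranes, had 3.02 FPKM in H146, against 55.9 in H522 and 54.2 in H661. LAMA3, an epithelial laminin chain, had 4.70 FPKM in H146, against 0.418 in H522 and 0.151 in H661, with a gap of 2.01 that became 1.97 after quantile normalization. The shared beta chain ITGB1 was abundant in all, with 73.3 FPKM in H146, against 80.2 in H522 and 207 in H661.

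Of 37 collagen genes 17 passed the filter, and H146 was below both lines in 11 and above both in 4. The 3 genes at least 2 below were 17.6% and the 2 at least 2 above 11.8%, beside 3.09% and 5.51% of all genes. COL11A1, a fibrillar collagen of cartilage and tumour stroma, had 0.0990 FPKM in H146, against 200 in H522 and 530 in H661, a gap of -7.51. COL5A2 had 0.695 FPKM in H146, against 50.6 in H522 and 108 in H661. COL2A1, the main cartilage collagen, had 21.5 FPKM in H146, against 0.0491 in H522 and 0.445 in H661, a gap of 3.96. Markers of other cell types were checked beside these genes. Of 10 fibroblast markers 9 passed the filter, and H146 was below both lines in 6 and above both in 1. COL3A1, with a gap of -3.30, was the 1 at least 2 below. PDGFRA, with a gap of 2.74, was the 1 at least 2 above. Each was 11.1%, beside 3.09% and 5.51% of all genes. The list summed to 23.7 FPKM in H146, against 36.0 in H522 and 661.4 in H661. DCN, LUM, FAP and POSTN were among those listed at 0 in H146. Of 14 immune markers 1 passed, CD68, which was listed below 1e-06 FPKM in H146, against 5.75 FPKM in H522 and 8.25 in H661, and the immune list summed to 2.39 FPKM in H146, against 7.34 in H522 and 9.76 in H661. Of 10 endothelial markers 2 passed, with a sum of 0.234 FPKM in H146, against 45.0 in H522 and 1.37 in H661, nearly all of it in H522 from the receptor TEK at 44.7 FPKM. The libraries are bulk RNA of cultured cancer cell lines. In bulk libraries fewer cells of a type and less RNA per cell cannot be told apart, and the part of such cells in the results was not tested.

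**Figure D3:**
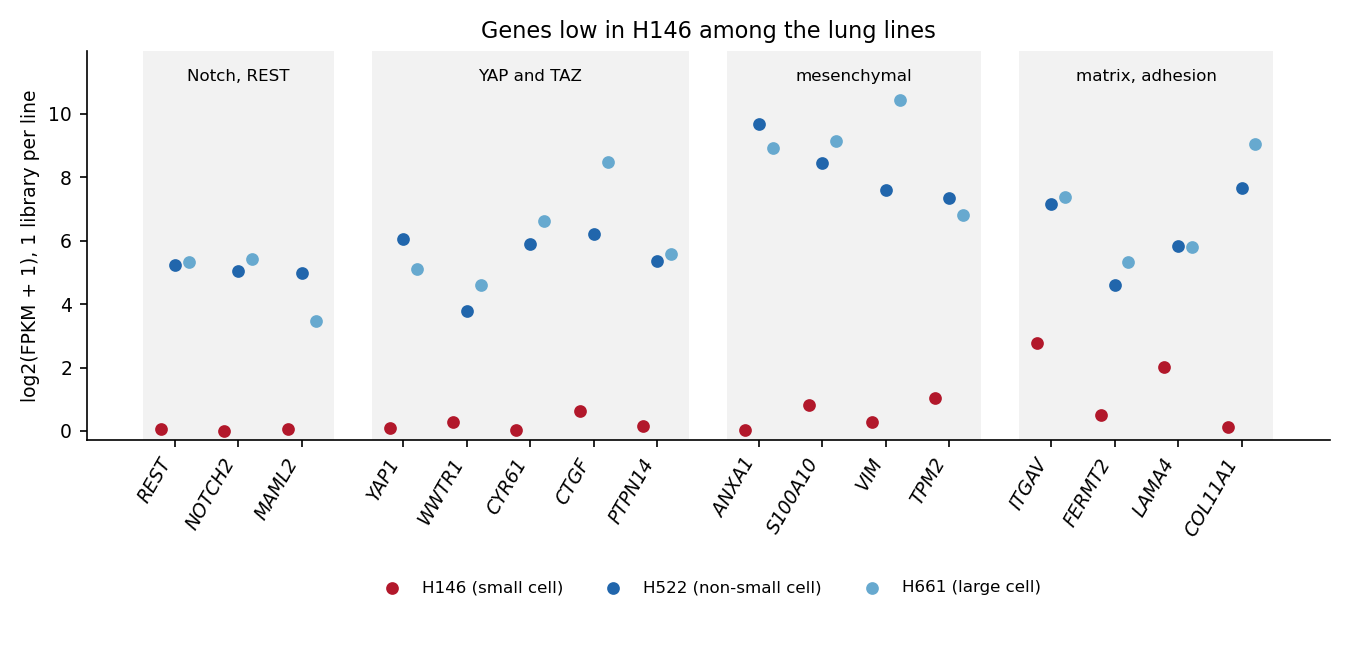
Log2(FPKM + 1) of REST and Notch genes, YAP and TAZ with their targets, mesenchymal genes, and matrix and adhesion genes in H146 (red), H522 (dark blue) and H661 (light blue), 1 point per library. The genes were picked with their levels known, and H146 was below both lines for all of them, with a gap of -8.88 for ANXA1 and of -3.40 for MAML2. List members with H146 above both lines, such as SNAI2, AMOTL1 and COL2A1, are not shown.

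Epithelial genes were mostly higher in H146. Of 41 listed genes 31 passed the filter, with 12 at least 2 above both lines (38.7%, beside 5.51% of all genes) and none at least 2 below. H146 was above both lines in 25 of the 31 and below both in 3. The median difference of the 31 was 1.91. ESRP1, a splicing factor of epithelial cells, had 61.6 FPKM in H146, against 1.005 in H522 and 1.53 in H661, a gap of 4.63. CDH1, E-cadherin, had 26.1 FPKM in H146, against 0.178 in H522 and 0.888 in H661, a gap of 3.84. EPCAM, an epithelial adhesion molecule, had 253 FPKM in H146, against 20.6 in H522 and 24.9 in H661, and so was present in all 3 lines. The tight junction genes CLDN7 and CLDN1 had 26.9 and 26.4 FPKM in H146 and at most 0.224 FPKM in the others. KRT8, a keratin of simple epithelia, had 40.8 FPKM in H146, against 1.36 in H522 and 0.165 in H661. OCLN, the tight junction protein occludin, was the main exception, with 11.8 FPKM in H146, against 45.2 in H522 and 59.5 in H661, a gap of -1.85.

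Lung lineage genes were few among those detected. Of 23 listed genes 11 passed the filter, H146 was above both lines in 6, below both in 3 and between them in 2, and the median difference was 1.21, or 2.02 without H522. Of the 11, 2 were at least 2 above (18.2%, beside 5.51% of all genes) and none at least 2 below. FOXA2, an endodermal pioneer factor, had 18.9 FPKM in H146 and was listed at 0 in both others. SOX9, a factor of distal airway progenitors, had 11.6 FPKM in H146, against 0.0195 in H522 and 0.421 in H661. NKX2-1, the defining factor of lung epithelium, had 0.0167 FPKM in H146, against 0.0204 in H522 and 11.2 in H661, so it was close to 0 in H146 and in H522. SFTPA1, SFTPA2, SFTPB, SFTPC, NAPSA and SCGB1A1, which make surfactant and airway secretions, were under 1 FPKM in all 3 lung lines.

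Cell cycle entry genes separated the lines at particular members. Of 32 listed genes 30 passed the filter, and H146 was above both lines in 8, below both in 14 and between them in 8. Over all genes H146 was above both in 32.9% and below both in 42.4%. At least 2 above was 1 gene (3.33%) and at least 2 below were 2 (6.67%), beside 5.51% and 3.09% of all genes. The list median of -0.34 lay near that of all genes and its side of that median changed with the settings. Beside RB1, CCND1 was lower. CCND1, cyclin D1, which inactivates RB1 with CDK4 or CDK6, had 0.0996 FPKM in H146, against 19.1 in H522 and 57.8 in H661, a gap of -4.19. Its level was 60.9 to 342 FPKM in the 5 lines of other tissues. Of the INK4 inhibitors of these kinases, CDKN2D and CDKN2C were above both lines, CDKN2A between them and CDKN2B below both. CDKN2D, the p19 inhibitor of CDK4 and CDK6, had 32.1 FPKM in H146, against 2.60 in H522 and 1.68 in H661, a gap of 3.20. CDKN2C, the p18 inhibitor, had 39.1 FPKM in H146, against 8.82 in H522 and 10.6 in H661, a gap of 1.79. CDKN2A, the p16 gene, lay between the lines, with 63.7 FPKM in H146, against 118 in H522 and 33.0 in H661. TFDP1, the partner of E2F factors, had 128 FPKM in H146, against 43.0 in H522 and 48.4 in H661.

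The replication and mitosis genes showed no common shift. All 40 passed the filter, and H146 was above both lines in 13, below both in 20 and between them in 7. Over all genes H146 was above both in 32.9% and below both in 42.4%. None was at least 2 above and 1 (2.5%) was at least 2 below, beside 5.51% and 3.09% of all genes. The median of -0.27 was near that of all genes and changed side with the settings. That 1 gene was CDC20, an activator of the anaphase complex, with 18.6 FPKM in H146, against 85.2 in H522 and 80.1 in H661. Its gap of -2.05 became -1.79 with upper-quartile scaling and -1.72 with quantile normalization. PCNA, the sliding clamp of replication, had 147 FPKM in H146, against 50.5 in H522 and 49.1 in H661, a gap of 1.52. MKI67, the Ki-67 antigen, had 18.5 FPKM in H146, against 34.3 in H522 and 26.4 in H661. The MYC family was as mixed. Of 12 genes 11 passed the filter and none was at least 2 outside. MYC had 37.9 FPKM in H146, against 85.5 in H522 and 10.6 in H661, and MYCL1, a gene amplified in some small cell tumours, had 0.323 FPKM in H146, against 12.3 in H522 and 1.32 in H661.

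SWI/SNF complexes slide nucleosomes with 1 of a pair of motor subunits, SMARCA4 and SMARCA2. SMARCA4 had 106 FPKM in H146, against 4.44 in H522 and 1.68 in H661, a gap of 4.30. SMARCA2 had 9.50 FPKM in H146, against 0.0282 in H522 and 2.26 in H661, a gap of 1.69. Both motors were therefore higher in H146 than in either other lung line. The list as a whole went either way. Of 29 listed genes 26 passed the filter, and H146 was above both in 9, below both in 9 and between them in 8. Over all genes H146 was above both in 32.9% and below both in 42.4%. At least 2 above was 1 gene (3.85%) and at least 2 below 1 (3.85%), beside 5.51% and 3.09% of all genes. The median difference was -0.004, which became 0.20 without H522 and -0.32 without H661. ACTL6B, a neuronal actin-related subunit, had 4.404 FPKM in H146, against 0.298 in H522 and 0.464 in H661, a gap of 1.88 that exceeded that of SMARCA2. SMARCD3 was the 1 subunit at least 2 below, with 0.112 FPKM in H146, against 7.39 in H522 and 5.38 in H661.

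**Figure D4:**
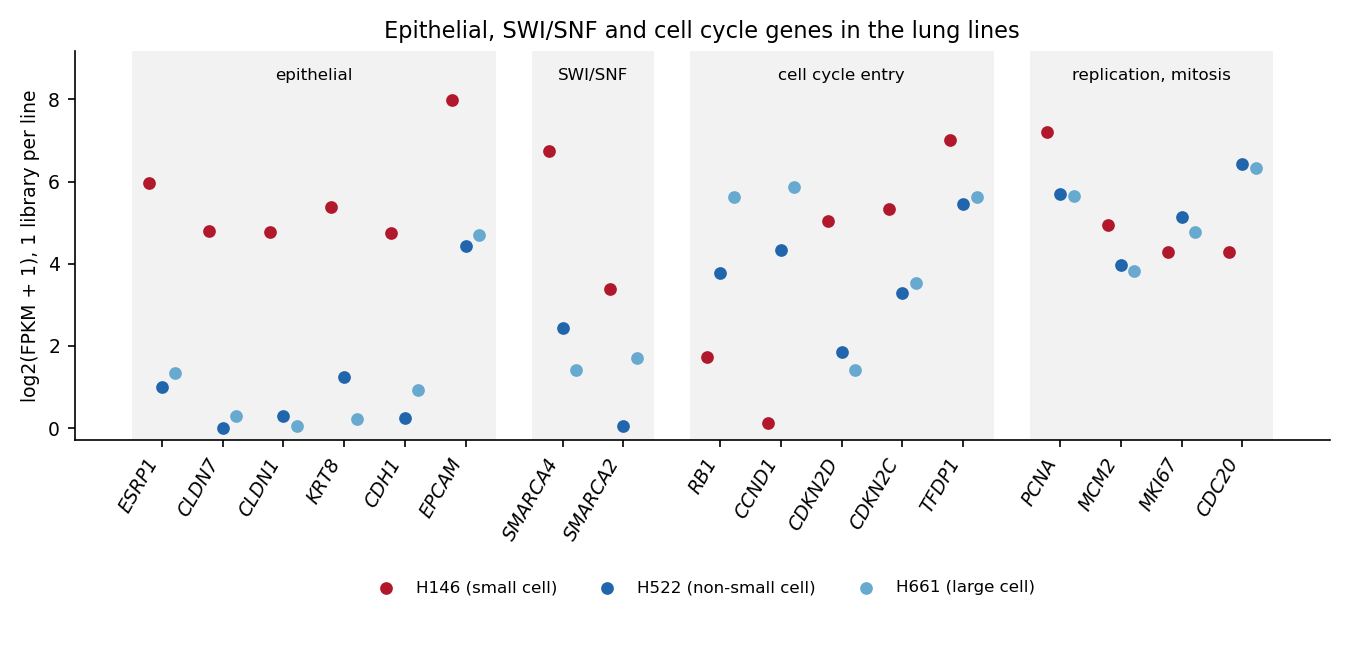
Log2(FPKM + 1) of epithelial genes, the SWI/SNF motors, cell cycle entry genes and replication or mitosis genes in H146 (red), H522 (dark blue) and H661 (light blue), 1 point per library. H146 was above both lines for the 6 epithelial genes and both motors and below both for RB1 and CCND1, while the replication and mitosis genes went either way. The genes were picked with their levels known, and OCLN, with H146 below both lines, is not shown.

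Apoptosis genes included 1 of the larger single differences. PMAIP1, the BH3-only protein NOXA that blocks MCL1, had 107 FPKM in H146, against 0.531 in H522 and 0.469 in H661, a gap of 6.14. BCL2, the survival protein, had 10.5 FPKM in H146, against 0.168 in H522 and 0.135 in H661, a gap of 3.30. MCL1 and BCL2L1, the other main survival genes, lay between the lines. MCL1 had 23.8 FPKM in H146, against 35.3 in H522 and 22.5 in H661. Of 30 listed genes 26 passed the filter, 2 were at least 2 above and 1, the death receptor TNFRSF1A, was at least 2 below with the scaling as deposited. These shares of 7.69% and 3.85% lay near the 5.51% and 3.09% of all genes. TNFRSF1A had 4.91 FPKM in H146, against 22.8 in H522 and 29.9 in H661, and its gap of -2.01 became -1.69 with upper-quartile scaling. Of 28 listed DNA damage response genes 24 passed the filter, and H146 was below both lines in 16 and above both in 3. Over all genes H146 was below both in 42.4% and above both in 32.9%. With upper-quartile scaling 13 of these genes were below both and 5 above both. None was at least 2 outside. SLFN11, a gene tied to killing by DNA-damaging drugs, had 0.0509 FPKM in H146, against 0.0400 in H522 and 6.72 in H661.

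Receptor tyrosine kinases carry growth signals across the membrane. Of 51 listed genes 32 passed the filter, H146 was below both lines in 19 and above both in 10, beside 42.4% below and 32.9% above over all genes, and 8 were at least 2 below and 3 at least 2 above, beside 3.09% and 5.51%. This gave a median difference of -0.71. ERBB4, the receptor by which the lines were selected, had 13.4 FPKM in H146, against 102 in H522 and 28.7 in H661, a gap of -1.04. ERBB2, its partner, had 0.868 FPKM in H146, against 21.96 in H522 and 10.97 in H661, a gap of -2.68. EGFR had 0.00692 FPKM in H146, against 0.392 in H522 and 7.84 in H661. IGF1R, the insulin-like growth factor receptor, had 2.15 FPKM in H146, against 95.0 in H522 and 47.8 in H661, the largest negative gap of the list at -3.95. The 3 clearly higher receptors were EPHA7, PDGFRA and RET. RET, a receptor of neural and neuroendocrine cells, had 4.98 FPKM in H146, against 0.0504 in H522 and 0.334 in H661. Of 11 ERBB ligands 8 passed the filter, and H146 was above both lines in none and below both in 6. Over all genes these shares were 32.9% and 42.4%. None of the ligands was at least 2 outside. NRG1, a ligand of ERBB3 and ERBB4, had 21.3 FPKM in H146, against 81.9 in H522 and 45.4 in H661.

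Antigen presentation genes supply and load the peptides shown by MHC molecules. Of 31 antigen presentation genes 22 passed the filter, and H146 was below both lines in 15 and above both in 3. At least 2 below were 4 genes (18.2%) and at least 2 above 1 (4.55%), beside 3.09% and 5.51% of all genes. For the detected genes the median difference was -0.91. TAP1, a subunit of the peptide transporter, was listed at 0 in H146, against 7.81 FPKM in H522 and 7.12 in H661, and TAP2 had 0.0364 FPKM in H146, against 6.91 in H522 and 3.89 in H661. PSMB9, an immunoproteasome subunit encoded beside TAP1, was also listed at 0 in H146, against 6.71 FPKM in H522 and 6.24 in H661. Of the class I heavy chains, HLA-E was listed at 0 in H146, against 11.05 FPKM in H522 and 5.43 in H661. HLA genes are polymorphic and similar, so their values depend on how reads were aligned. TAPBPL, a peptide editor of class I, was the 1 gene at least 2 above, with 4.72 FPKM in H146, against 0.236 in H522 and 0.0271 in H661. B2M, the shared light chain, had 29.6 FPKM in H146, against 44.8 in H522 and 114 in H661.

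Of 41 nucleic acid sensing and interferon genes 25 passed the filter, and H146 was below both lines in 14 and above both in 5. Over all genes H146 was below both in 42.4% and above both in 32.9%. At least 2 below were 3 genes (12.0%) and at least 2 above 1 (4.0%), beside 3.09% and 5.51% of all genes. The median difference of -0.38 lay near the -0.21 of all genes. MB21D1, the DNA sensor cGAS, had 0.658 FPKM in H146, against 14.0 in H522 and 7.93 in H661, a gap of -2.43. IFNAR2, a subunit of the interferon receptor, had 2.93 FPKM in H146, against 22.5 in H522 and 14.8 in H661. Its gap of -2.01 became -1.84 with upper-quartile scaling. DDX58, the RNA sensor RIG-I, was higher, with 12.3 FPKM in H146, against 1.38 in H522 and 1.90 in H661, a gap of 2.20.

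**Figure D5:**
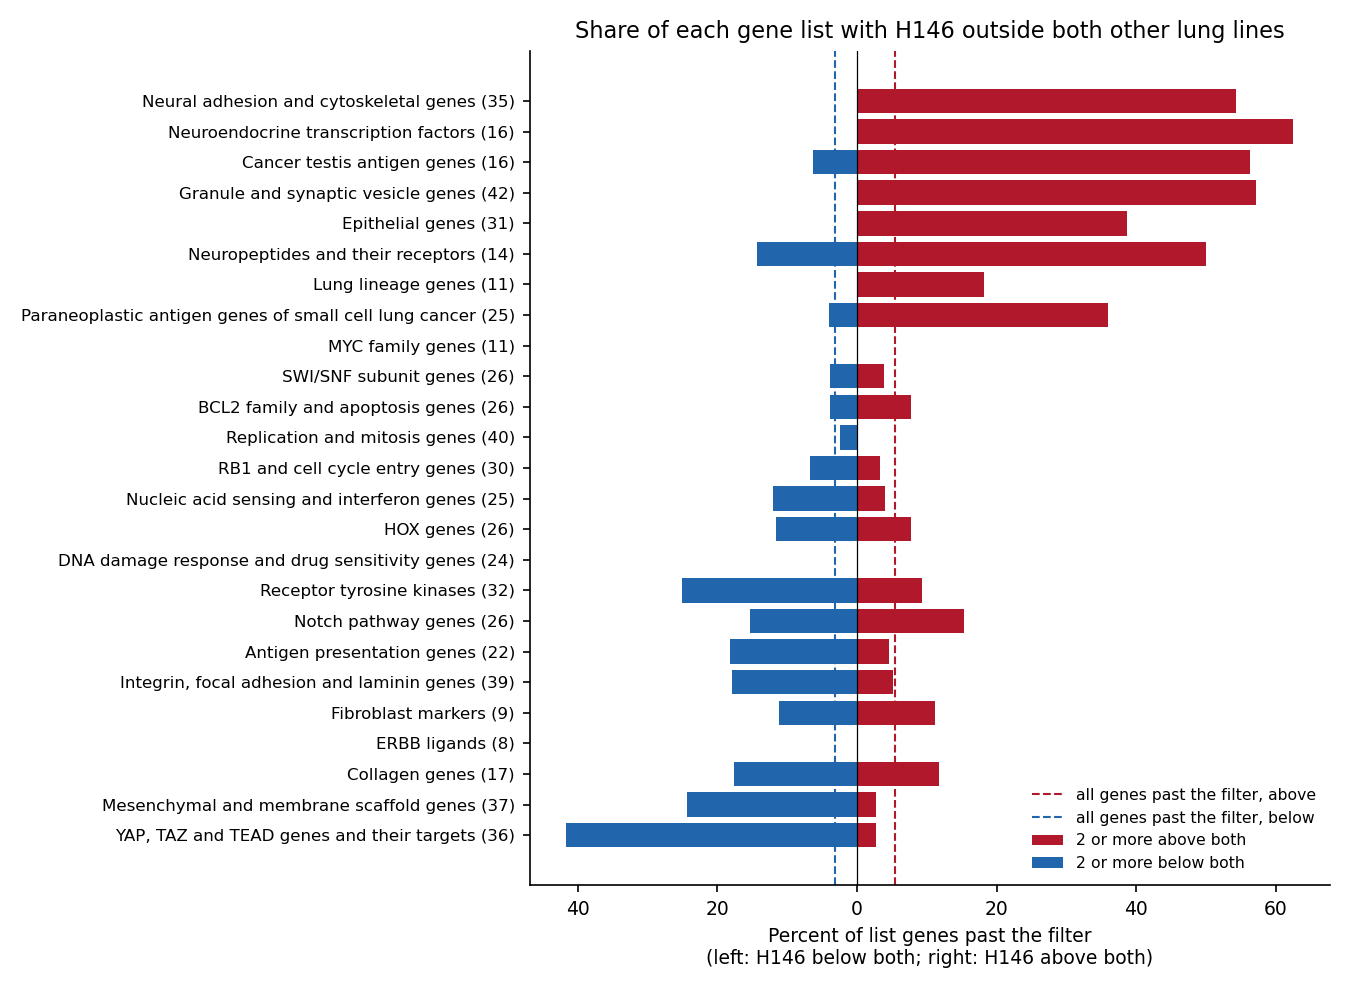
Percent of the genes past the filter in each list, their number in brackets, with H146 at least 2 above both other lung lines (red, to the right) or at least 2 below both (blue, to the left). Dashed lines mark the 5.51% and 3.09% of all genes, and lists run from the highest median difference at the top to the lowest at the bottom.

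The rule of 2 cut through a continuous range of gaps. PYROXD1 was the last gene inside on the higher side, with 21.4 FPKM in H146, against 4.60 in H522 and 2.20 in H661, and GDAP1L1 the first outside, with 2.99 FPKM in H146 and 0 listed in both others. On the lower side GNL2 was just outside, with 11.7 FPKM in H146, against 110 in H522 and 49.6 in H661. Housekeeping genes show how far widely used genes differed between these lines. All 10 passed the filter, none was at least 2 outside, and their differences ran from -1.25 to 1.18 with a median of -0.21. GAPDH had 2152 FPKM in H146, against 1811 in H522 and 1276 in H661, and ACTB had 2373 FPKM in H146, against 2452 in H522 and 4347 in H661.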

How the data were processed

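The authors deposited FPKM values per gene for each line, keyed by Ensembl identifier and symbol, per the file headers. CASAVA 1.4, TopHat2 2.0.8 and SAMtools 1.0 and the build GRCh37 are named in the submitters' processing notes. Which program computed FPKM, from which annotation and with what use of strand was not given in the sources used here. Without read totals the absolute depth is unknown, and counting intervals cannot be formed. Values under 0.1 FPKM were used to read relative depth from the commonest ratio between lines, within 0.03 (log2).

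Groups came from the disease in the labels. Levels were compared as log2(FPKM + 1) in Python 3.11.15 with numpy 2.4.6 and pandas 2.3.3, and drawn with matplotlib 3.10.9. The calculation of gaps was tested on simulated data. No replicates exist, so no test was run. Named genes are the 5 markers, ERBB4, the 15 protein-coding genes with the largest gap in each direction (leaving out XIST and Y-linked genes), up to 4 members of each of 28 lists in each direction, and members needed to describe a list. Other genes were named after their values were seen. The lung lines, markers and lists were chosen with earlier results of these data known. Alternatives changed the pseudocount, filter, scaling, gene types, transcript length, gap or the lines used. Gene types and lengths came from GENCODE v29, which held 96.2% of the genes past the filter, and promoter windows from RefSeq on GRCh38.p14. No coordinates were moved between builds. A planned search for an E-box in promoters of neural genes is not reported, because 35 of 53 genes had a window. NUMB, ITGB6 and LAMA2 were not analysed here. A few genes that the rule names are not reported here.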

Additional observations from a re-analysis of the deposited data

How the results depend on the processing

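The counts of genes with H146 at least 2 outside both lines depended on the pseudocount and the size of the gap. With a pseudocount of 0.1 there were 1797 higher and 1181 lower genes, with a pseudocount of 5 there were 319 and 158, with a gap of 1 there were 2272 and 1923, and with a gap of 3 there were 442 and 187, against 893 and 502. Leaving out H522 or H661 gave 1174 to 1302 higher genes, and 1121 to 1165 lower genes, since only 1 line then had to be passed. Upper-quartile scaling gave 1065 higher and 409 lower genes, and quantile normalization gave 963 and 473. Without a filter, with a filter of 5 FPKM, in protein-coding genes, and for transcripts over 1000 bases, an alternative added after seeing the data, the counts stayed within 1.5 times. Of 207 named genes, 116 were at least 2 outside, and 37 of these were not with a pseudocount of 5. None of the 116 changed sign with upper-quartile scaling or quantile normalization. The other settings cannot reverse a gap, so they say nothing on direction. The medians of the RB1, replication, MYC, BCL2, SWI/SNF, HOX, immune and housekeeping lists changed side relative to all genes under some settings. No paired analysis was possible because the labels give no replicate numbers and each line has 1 library. The unknown depth limits statements on genes near 0.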

Other observations

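Genes of the cancer testis family, which are normally silent outside the germ line, included several that were high in H146. Of 34 listed genes 16 passed the filter, and H146 was at least 2 above both other lung lines in 9 (56.25%) and at least 2 below in 1 (6.25%). Over all genes these shares were 5.51% and 3.09%. The median difference was 2.79, against -0.21 over all genes. The filter is met through the line where a gene is high, and without it the median was 0.88 over 26 genes, against -0.02. MAGEC2 had 60.9 FPKM in H146, against 0.0411 in H522 and 0.182 in H661, and MAGEA1 had 38.9 FPKM in H146, against 0.0164 in H522 and 0 listed in H661. MAGEA6 and MAGEA3 were high in H146 and in H661, at 26.1 and 36.2 FPKM in H146 and 32.3 and 22.2 FPKM in H661. MAGE and PAGE genes have near-identical copies, and the rule for reads they share is not stated. PRAME, another tumour antigen, was the exception, with 1.44 FPKM in H146, against 46.7 in H522 and 34.6 in H661.

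HOX genes pattern the body axis in clusters of neighbouring genes. Of 39 listed genes 26 passed the filter, 2 were at least 2 above and 3 at least 2 below. These were 7.69% and 11.5%, beside 5.51% and 3.09% of all genes. All 3 lower genes were in the HOXC cluster, and HOXC10 was listed at 0 in H146, against 64.1 FPKM in H522 and 34.7 in H661. The higher genes were HOXA10, with 13.0 FPKM in H146, against 0.0980 in H522 and 0.896 in H661, and HOXD13, with 5.78 FPKM in H146, against 0.0720 in H522 and 0.621 in H661. Among long non-coding RNAs, DLX6-AS1, which lies beside DLX5 and DLX6, had 59.9 FPKM in H146, was listed at 0 in H522 and had 0.217 FPKM in H661, although its reads cannot be told apart from those of DLX6 where strand was not used. LINC00261, a neighbour of FOXA2, had 35.5 FPKM in H146, was listed at 0 in H522 and had 0.00757 FPKM in H661. MIR99AHG, a host transcript of microRNAs, was listed at 0 in H146, against 41.5 FPKM in H522 and 37.6 in H661. Of the 569 lincRNA genes past the filter, 53 (9.31%) were at least 2 above both lines, against 671 of 12500 protein-coding genes (5.37%).

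Some genes were low in H146 alone among the 8 lines. Of 3368 genes at 10 FPKM or more in all 7 other lines, 27 were under 1 FPKM in H146. By the same rule H522 had 8 such genes of 3143 and H661 had 3 of 3121. Besides REST, VIM, ANXA1 and CCND1, they included IL6ST, the shared receptor subunit of interleukin 6 signalling, at 0.0246 FPKM in H146 and 21.6 to 213 FPKM in the other lines. ETFB, a mitochondrial electron transfer flavoprotein subunit, had 0.0907 FPKM in H146 and 27.5 to 110 FPKM in the others. USP25, a ubiquitin protease, had 0.374 FPKM in H146 and 22.6 to 202 FPKM in the others.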
